A study of Mus musculus with 35 samples.

Results

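The interferon-stimulated genes are 35 genes, taken by symbol from a fixed list, out of 21889 mouse genes placed on the peak lists. All 35 were found in the annotation. In role they comprise the cytosolic RNA sensors Ifih1, Ddx58 and Dhx58, the signalling factor Stat2, antiviral effectors of the Ifit, Mx and Oas families, Rsad2, Bst2, Eif2ak2, Samhd1, Isg20 and Xaf1, the ubiquitin-like modifier Isg15 with its protease Usp18, interferon-inducible GTPases (Irgm1, Igtp, Gbp2, Gbp3, Gbp5, Gbp7), the ADP-ribosylation and ubiquitin factors Parp9, Parp14, Dtx3l and Trim25, the chemokine Cxcl10, and Rtp4, Ifi44, Oasl1 and Oasl2. They were not chosen for their values, but the choice was made with earlier results of these data known.

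Interferons bind receptors at the cell surface and activate Janus kinases, which phosphorylate STAT proteins. A complex that includes Stat2 and Irf9 then enters the nucleus and binds interferon-stimulated response elements (ISRE) in the promoters of these genes, and interferon gamma acts at a different element. In bone marrow, interferons are known to move stem cells out of quiescence, and many of these genes are kept at a basal level in stem and progenitor cells without infection.

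The study followed histone marks as leukaemia develops in mice that carry an Npm1c mutation, a Flt3-ITD mutation, or both. Chromatin immunoprecipitation with sequencing (ChIP-seq) was done in haematopoietic stem and progenitor cells (HSPC) of Npm1c, Flt3-ITD and DM mice, in neutrophils of wild-type (WT) mice, and in WT HSPC. Each of the 5 groups had 2 libraries per mark, stated by the series design to be biological replicates, so that 30 libraries were used. The marks were H3K27ac, found at active promoters and enhancers, H3K4me1, found at enhancers and promoter flanks, and H3K4me3, found at promoters. The labels give DM without spelling it out, and it is taken here to mean mice with both mutations. All mice were of strain C57BL/6. HSPC were lineage-negative bone marrow cells left after kit depletion of lineage-positive cells, so they mix stem cells and several progenitor types. Neutrophils were isolated from bone marrow with a kit. The mice's age, the promoter or recombinase behind each mutant allele, and whether animals were pooled are not stated in the labels. The alleles themselves could not be checked, because the files hold peak coordinates without sequence or read counts. For the same reason the depth of each library is unknown.

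All values below are kilobases (kb) of a gene's window under peaks. The window runs 10 kb beyond either end of the gene for H3K27ac and H3K4me1, and 5 kb beyond for H3K4me3. Covered length is not signal height, and a window can take in a neighbour's promoter. H3K27ac lists held 21709 to 30150 peaks and covered 23.4 and 23.9 Mb in Npm1c HSPC, 16.6 and 18.3 Mb in Flt3-ITD HSPC, 20.3 and 13.5 Mb in DM HSPC, 16.0 and 16.6 Mb in neutrophils, and 15.2 and 15.3 Mb in WT HSPC. The 2 DM lists therefore differ from each other more than those of any other group, and the Npm1c lists are the longest in covered length. Neutrophil marker genes carried H3K27ac in both neutrophil libraries at 10 of 10 genes, and in both libraries of no HSPC group at more than 1 of 10. Stem and progenitor markers carried it in both libraries at 8 of 8 genes in Npm1c and Flt3-ITD HSPC, at 5 of 8 in DM HSPC, at 2 of 8 in neutrophils and at 7 of 8 in WT HSPC. Erythroid marker windows summed to 4.14 and 3.35 kb in DM HSPC, against 26.7 and 25.1 kb in WT HSPC. Monocyte marker windows summed to 12.1 and 4.05 kb in DM HSPC, against 1.32 and 0.846 kb in WT HSPC. They were covered in both libraries at 4 of 8 genes in DM HSPC and at 2 of 8 in WT HSPC, while Ly6c2 and Adgre1 were at 0 in every HSPC group. Dendritic cell marker windows summed to 27.7 and 13.7 kb in DM HSPC, against 12.8 and 12.2 kb in WT HSPC, with 4 of 8 genes covered in both libraries of either group. How far such differences in cell make-up enter the values below was not tested.

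The promoters of many members hold the letters of the response element described above, which is why a few are shown. RefSeq promoter windows, from 250 bases before to 50 bases after the annotated start, were at hand for 27 of the 35 genes. A short form of the ISRE, GAAA followed by any 2 bases and a second GAAA, or on the other strand TTTC, any 2 bases and TTTC, occurred in 18 of the 27 (66.7%), against 689 of 17492 promoters of all genes (3.94%). The letters TTCNNNGAA, the core of the interferon gamma-activated site, which read the same on both strands, occurred in 9 of 27 (33.3%), against 1560 of 17492 (8.92%). A match is only a match of letters and does not show that a factor binds there. The 150 bases that end just before the annotated start are printed for 7 members, chosen among those with ISRE letters in that stretch. Ddx58, Gbp5 and Ifit2, whose promoter regions also appear below, have no such letters there and are not printed. Each sequence is read on the gene's strand of GRCm38.p6, the assembly behind mm10, from RefSeq, with the ISRE letters in capitals.

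Isg15 chr4:156200819-156200968 (- strand): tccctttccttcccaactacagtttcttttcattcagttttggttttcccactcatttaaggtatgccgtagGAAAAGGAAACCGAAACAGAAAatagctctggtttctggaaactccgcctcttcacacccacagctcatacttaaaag
Ifit1 chr19:34640739-34640888 (+ strand): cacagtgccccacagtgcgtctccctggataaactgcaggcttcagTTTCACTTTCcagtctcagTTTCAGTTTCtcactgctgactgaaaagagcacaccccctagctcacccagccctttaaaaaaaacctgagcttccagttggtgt
Rsad2 chr12:26456453-26456602 (- strand): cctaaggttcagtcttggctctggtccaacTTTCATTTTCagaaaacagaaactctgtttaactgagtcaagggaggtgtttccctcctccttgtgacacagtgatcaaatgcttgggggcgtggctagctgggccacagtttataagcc
Oas3 chr5:120777660-120777809 (- strand): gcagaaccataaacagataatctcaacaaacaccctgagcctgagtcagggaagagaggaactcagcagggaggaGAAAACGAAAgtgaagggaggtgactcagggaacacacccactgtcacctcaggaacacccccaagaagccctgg
Irgm1 chr11:48871421-48871570 (- strand): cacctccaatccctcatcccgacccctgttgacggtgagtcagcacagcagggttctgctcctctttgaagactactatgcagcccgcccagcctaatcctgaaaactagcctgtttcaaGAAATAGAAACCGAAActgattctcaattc
Igtp chr11:58199406-58199555 (+ strand): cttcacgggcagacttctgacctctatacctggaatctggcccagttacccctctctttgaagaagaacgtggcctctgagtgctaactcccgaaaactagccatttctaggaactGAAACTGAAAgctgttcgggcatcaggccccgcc
Gbp3 chr3:142559894-142560043 (+ strand): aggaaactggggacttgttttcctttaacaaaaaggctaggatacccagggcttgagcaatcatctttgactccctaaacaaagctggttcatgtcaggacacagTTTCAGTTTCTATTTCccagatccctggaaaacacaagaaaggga

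RefSeq gives 2 starts for Gbp3, and the upstream one is shown. In Isg15 the matches overlap and begin 78, 72 and 66 bases before the start, in Irgm1 30 and 24 bases, and in Gbp3 45 and 39 bases. Ifit1 has separate matches 104 and 85 bases before the start, Igtp has 1 at 34 bases and Rsad2 has 1 at 120 bases.

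Most of the interferon-stimulated genes already carried these marks in WT HSPC. H3K27ac was present in the windows of 23 of 35 members in all 10 libraries, against 47.9% of all genes, and H3K4me3 in 33 of 35, against 64.8% of all genes. H3K4me1 was likewise present at 33 of 35 in all 10 libraries, against 69.2% of all genes. Ifit3, Mx1, Oas1a and Ifi44 had no H3K27ac in any library, and Ifit3 also had no H3K4me3. The median window in WT HSPC held 1.12 kb of H3K27ac, against 1.34 kb over all genes. Directly at the promoter window, an H3K27ac peak lay at 21 and 20 of the 27 members in Npm1c HSPC, 20 and 21 in Flt3-ITD HSPC, 19 and 15 in DM HSPC, 17 and 16 in neutrophils, and 20 and 19 in WT HSPC. The share over all 17492 promoters lay between 38.0% and 47.7% in the 10 libraries. Cxcl10, Ifi44, Ifit1, Ifit3, Oas1a and Oasl2 had no H3K27ac promoter peak in any library, although Cxcl10, Ifit1, Ifit3 and Oas1a hold ISRE letters there. A promoter with the element is thus found both with and without the mark in these cells.

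**Figure D1:**
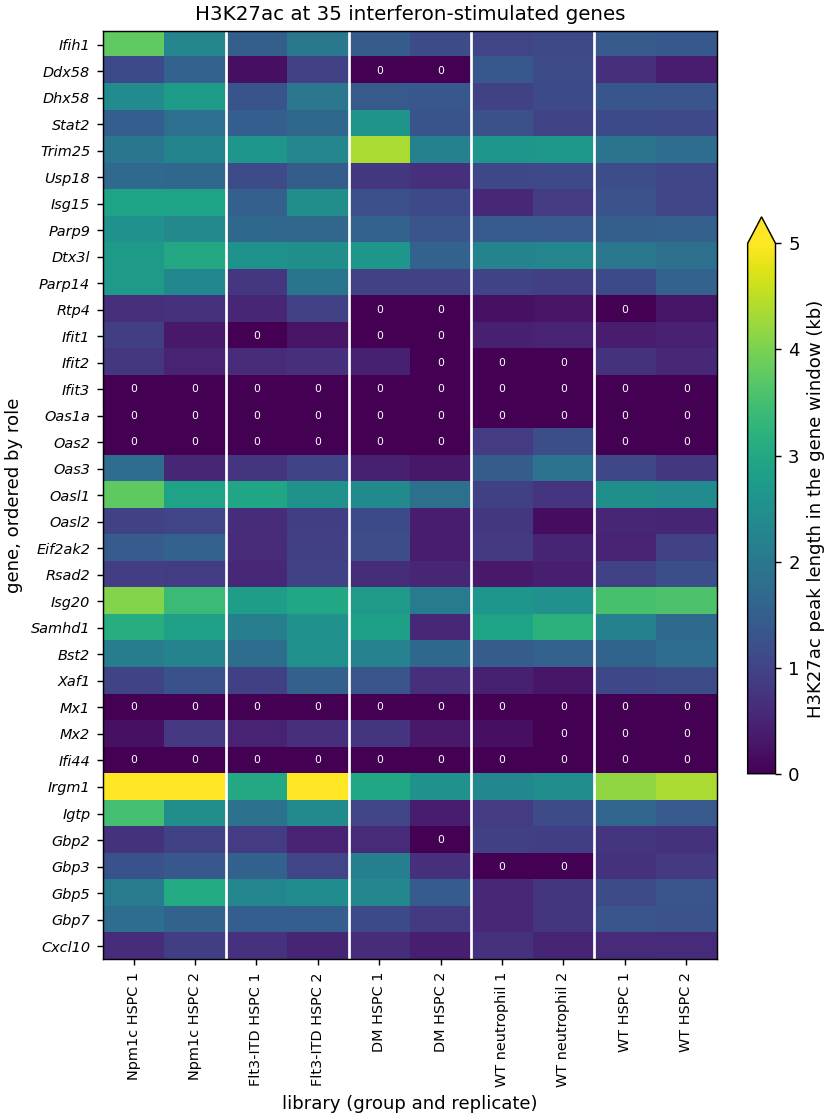
H3K27ac in the windows of the 35 interferon-stimulated genes, in kb, with genes down the page and the 10 libraries across, where the colour scale ends at 5 kb. Isg15 is near 2.90 kb in both Npm1c libraries, Oas2 is above 0 only in the neutrophil libraries, and Ifit3, Mx1, Oas1a and Ifi44 are at 0 throughout.

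The first comparison set Npm1c HSPC against WT HSPC and asked what the mutation alone goes with. H3K27ac over 7 members rose, namely Isg15, Usp18, Gbp5, Ifih1, Dhx58, Parp9 and Rtp4, and over none fell, among 31 members that could be tested. A call here is a Benjamini-Hochberg adjusted p below 0.05 from limma over 13638 genes on log2(bp + 500), a scale that understates the change of short coverage. Over all genes 17.7% rose and 0.022% fell, so the members' count lies close to the background. The median log2 difference was 0.48 over the members and 0.36 over all genes.

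Isg15 (chr4:156199424-156200818), a ubiquitin-like protein that is attached to other proteins, had 2.90 and 2.90 kb in Npm1c HSPC, against 1.29 and 1.04 kb in WT HSPC. Both Npm1c libraries lay far above both WT libraries, and the log2 difference was 1.04 ± 0.20 (SE, limma adjusted p = 0.0235). The region over the Isg15 promoter itself, chr4:156200459-156201322, was 864 and 621 bp long in Npm1c HSPC, against 266 and 0 bp in WT HSPC; the window also takes in promoter regions of its neighbours Agrn, Perm1 and AW011738. Usp18 (chr6:121245906-121270917), the protease that removes Isg15 and dampens the type I interferon receptor, had 1.71 and 1.69 kb in Npm1c HSPC, against 1.18 and 1.06 kb in WT HSPC (log2 0.45 ± 0.12 SE, limma adjusted p = 0.0465). The groups did not overlap.

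All 3 RNA sensors were higher in both Npm1c libraries than in both WT libraries, and the test was passed by Ifih1 and Dhx58. Over all genes 17.7% passed as rises, and the share higher in both Npm1c libraries was not computed. Ifih1 (chr2:62595618-62646255), which encodes the sensor MDA5 of long double-stranded RNA, had 3.79 and 2.28 kb in Npm1c HSPC, against 1.44 and 1.39 kb in WT HSPC (log2 0.85 ± 0.21 SE, limma adjusted p = 0.037). No other protein-coding gene lies in its window, and a region 2439 bp from its start, chr2:62643487-62644145, was covered in Npm1c HSPC (652 and 530 bp) and not in WT HSPC (0 and 0 bp). Dhx58 (chr11:100694884-100704271), encoding the related LGP2, had 2.41 and 2.73 kb in Npm1c HSPC, against 1.33 and 1.33 kb in WT HSPC (log2 0.75 ± 0.16 SE, limma adjusted p = 0.0276). Its window includes the promoters of Kat2a and Hspb9. Ddx58 (chr4:40203777-40239825), encoding RIG-I, had 1.12 and 1.57 kb in Npm1c HSPC, against 0.677 and 0.398 kb in WT HSPC, and did not pass.

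Among the GTPases, Gbp5 (chr3:142496934-142522344), a guanylate-binding protein with roles in inflammasome activation, had 2.07 and 3.06 kb in Npm1c HSPC, against 1.14 and 1.33 kb in WT HSPC (log2 0.81 ± 0.21 SE, limma adjusted p = 0.043). Its window takes in the Gbp7 promoter. The peak there had 1425 and 1290 bp in Npm1c HSPC, against 1136 and 1089 bp in WT HSPC, and made up most of the WT length. Irgm1 (chr11:48865245-48871420), an immunity-related GTPase that restrains stem cell proliferation in mice, had 6.18 and 6.94 kb in Npm1c HSPC, against 4.18 and 4.36 kb in WT HSPC. The groups were apart, but Irgm1 did not pass (limma adjusted p = 0.111). Parp9 (chr16:35938470-35972621), the partner of the ubiquitin ligase Dtx3l, with which it shares a promoter region, had 2.53 and 2.35 kb in Npm1c HSPC, against 1.51 and 1.52 kb in WT HSPC (log2 0.54 ± 0.10 SE, limma adjusted p = 0.0209). Rtp4 (chr16:23520219-23614222), an interferon-induced chaperone of receptors with a window of 114 kb, had 0.676 and 0.708 kb in Npm1c HSPC, against 0 and 0.275 kb in WT HSPC (log2 0.94 ± 0.24 SE, limma adjusted p = 0.0396).

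Other effectors stood closer to WT. Ifit1, which binds viral RNA, had 0.921 and 0.341 kb in Npm1c HSPC, against 0.401 and 0.467 kb in WT HSPC, with overlap. Rsad2, encoding the antiviral enzyme viperin, had 0.907 and 0.893 kb in Npm1c HSPC, against 0.98 and 1.21 kb in WT HSPC. Cxcl10, a chemokine that attracts T cells, had 0.639 and 0.92 kb in Npm1c HSPC, against 0.61 and 0.598 kb in WT HSPC. None of these passed. Stat2 had 1.49 and 1.82 kb in Npm1c HSPC, against 1.12 and 1.1 kb in WT HSPC, and did not pass either (limma adjusted p = 0.2), while the largest region in its window lies at the promoter of Pan2. Mx2, annotated as a transcribed pseudogene in this strain's reference, had 0.229 and 0.833 kb in Npm1c HSPC, against 0 kb in both WT libraries, and entered the test mainly through the mutant libraries.

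The Npm1c count depended on the window and on the scale. With the gene span alone, without the 10 kb on either side, 5 members passed (Igtp, Dhx58, Rtp4, Dtx3l, Ifih1). Over all genes there were then 1650 calls. Isg15, Usp18, Gbp5 and Parp9 did not pass with it, at log2 0.55, 0.54, 0.92 and 0.12 (limma adjusted p = 0.0613, 0.124, 0.0597 and 0.221). After the median over genes was taken off each library, 0 members passed (limma, all 7 lost, with 7 members at an unadjusted p below 0.05) and 109 of 13638 genes did (0.799%), and the members' median was 0.08, against -0.03 over all genes. Without WT HSPC replicate 1 or replicate 2 no member passed, and without Npm1c HSPC replicate 1 or replicate 2 there were 3 and 2. Over all genes the calls without these libraries numbered 9, 5, 1255 and 776, as compared with 2413 with all libraries. A group left with 1 library is assumed in such fits, here and below, to vary like the other groups. In bulk samples, fewer cells with a mark and less mark per cell cannot be told apart, and here the length of the peak lists cannot be told apart from library depth.

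**Figure D2:**
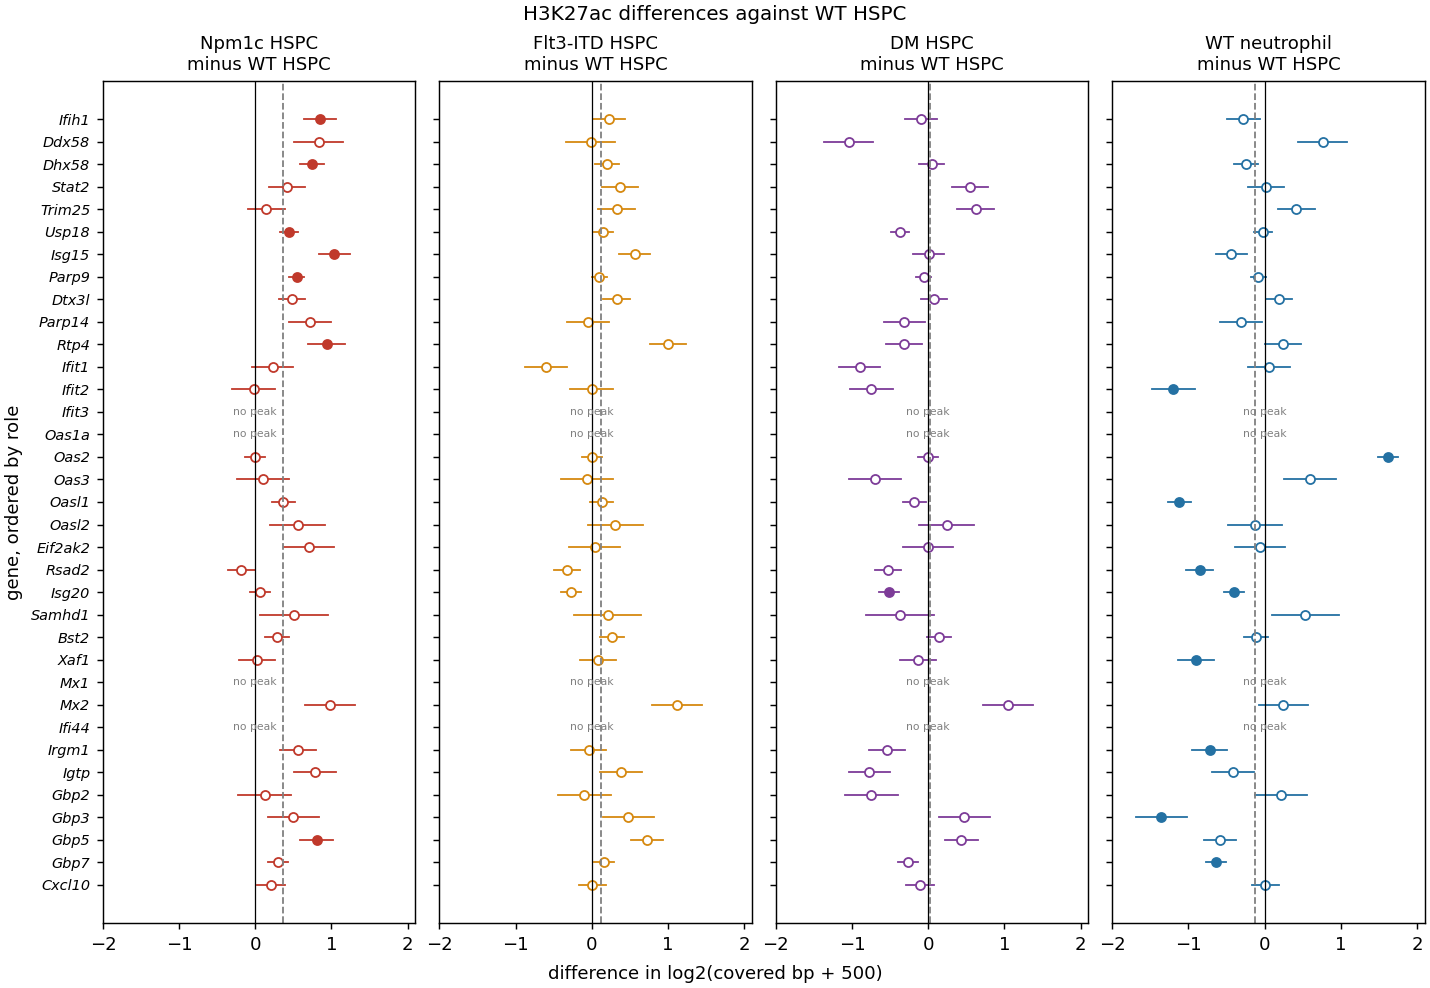
Log2 difference in H3K27ac ± SE (limma) for each testable interferon-stimulated gene, in 4 panels for Npm1c, Flt3-ITD and DM HSPC and neutrophils, each against WT HSPC. Filled points passed the test (7, 0, 1 and 9 genes, the last with Oas2), the dashed line is the median of all genes, and where a group had no peak the point rests on the added 500 bp.

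Flt3-ITD HSPC were set against the same WT libraries. No member passed for H3K27ac (limma), as compared with 0.103% of all genes, none with robust fitting, and none with median centring (1.43% of all genes, with 7 members at an unadjusted p below 0.05). Without centring 4 members, Isg15, Mx2, Gbp5 and Rtp4, had an unadjusted p below 0.05. The median log2 difference was 0.15 over the members and 0.12 over all genes. Isg15 had 1.53 and 2.47 kb in Flt3-ITD HSPC, against 1.29 and 1.04 kb in WT HSPC. Gbp5 had 2.29 and 2.44 kb in Flt3-ITD HSPC, against 1.14 and 1.33 kb in WT HSPC. In both genes the 2 Flt3-ITD libraries lay above the WT libraries, and limma adjusted p was 0.247 and 0.184. Ifit1 had 0 and 0.254 kb in Flt3-ITD HSPC, against 0.401 and 0.467 kb in WT HSPC. Irgm1 had 3.02 and 5.62 kb in Flt3-ITD HSPC, against 4.18 and 4.36 kb in WT HSPC, with the Flt3-ITD libraries on both sides of WT.

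In DM HSPC 1 of the 31 tested members passed against WT HSPC. Isg20 (chr7:78913396-78920396), an exonuclease that degrades single-stranded RNA, had 2.68 and 2.03 kb in DM HSPC, against 3.54 and 3.6 kb in WT HSPC (log2 -0.52 ± 0.13 SE, limma adjusted p = 0.0416). Over all genes 6.94% rose and 6.03% fell. The median log2 difference was -0.13 over the members, of which 11 were above and 19 below 0, and 0.02 over all genes. Isg15 was level with WT at 1.23 and 1.11 kb in DM HSPC, against 1.29 and 1.04 kb in WT HSPC (log2 0.01 ± 0.20 SE). Usp18 had 0.813 and 0.691 kb in DM HSPC, against 1.18 and 1.06 kb in WT HSPC, without overlap but not passed (limma adjusted p = 0.0924). Irgm1 had 2.99 and 2.57 kb in DM HSPC, against 4.18 and 4.36 kb in WT HSPC (limma adjusted p = 0.182). Both GTPase and protease values lay below those of either WT library.

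Some members had no peak in DM HSPC. Ifit1 had 0 kb in both DM libraries, against 0.401 and 0.467 kb in WT HSPC (limma adjusted p = 0.0734). Ddx58 had 0 kb in both DM libraries, against 0.677 and 0.398 kb in WT HSPC. Rsad2 had 0.658 and 0.544 kb in DM HSPC, against 0.98 and 1.21 kb in WT HSPC (limma adjusted p = 0.0894). Cxcl10 was similar in length at 0.642 and 0.421 kb in DM HSPC, against 0.61 and 0.598 kb in WT HSPC. A few members had longer coverage: Trim25, the ubiquitin ligase that activates RIG-I, had 4.37 and 2.21 kb in DM HSPC, against 1.93 and 1.79 kb in WT HSPC, and Stat2 had 2.59 and 1.3 kb in DM HSPC, against 1.12 and 1.1 kb in WT HSPC. Neither passed (limma adjusted p = 0.142 and 0.18).

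The DM count also moved with the scale and the library. With median centring 3 members rose (Mx2, Stat2, Trim25) and 7 fell (Ifit1, Ifit2, Isg20, Rsad2, Usp18, Igtp, Ddx58), as compared with 11.4% and 11.2% of all genes. Without DM HSPC replicate 1 there were 5 falls (Igtp, Ifit2, Samhd1, Gbp2, Isg20), without DM HSPC replicate 2 there were 4 rises (Stat2, Trim25, Dtx3l, Gbp3), and without WT HSPC replicate 1 or replicate 2 there were 0. Over all genes the calls without these libraries numbered 1978, 2716, 214 and 298, as compared with 1770.

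DM HSPC were next set against Npm1c HSPC, which asks what accompanies the addition of Flt3-ITD. H3K27ac fell over 14 members and rose over none, as compared with 30.9% and 3.01% of all genes. The median log2 difference was -0.60 over the members, of which 27 were below 0, and -0.31 over all genes. Igtp (chr11:58199556-58207592), an immunity-related GTPase, had 1.04 and 0.391 kb in DM HSPC, against 3.51 and 2.46 kb in Npm1c HSPC (log2 -1.56, limma adjusted p = 0.00607). The Igtp window reaches the neighbours Gm12250 and Irgm2, and part of the difference lies past the end of Igtp. There the region chr11:58210873-58211709 had 298 and 0 bp in DM HSPC, against 790 and 637 bp in Npm1c HSPC. Irgm1 had 2.99 and 2.57 kb in DM HSPC, against 6.18 and 6.94 kb in Npm1c HSPC (log2 -1.11, limma adjusted p = 0.0115). In both GTPases the groups were far apart, and the WT values lie between them in both.

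Isg15 had 1.23 and 1.11 kb in DM HSPC, against 2.90 and 2.90 kb in Npm1c HSPC (log2 -1.03, limma adjusted p = 0.00936). Usp18 had 0.813 and 0.691 kb in DM HSPC, against 1.71 and 1.69 kb in Npm1c HSPC (log2 -0.82, limma adjusted p = 0.00365). The modifier and its protease thus moved in the same direction. Parp14, an ADP-ribosyltransferase, fell by 1.03 on the log2 scale, Ifih1 by 0.95, Dhx58 by 0.70, Parp9 by 0.60, Isg20 by 0.58, Gbp7 by 0.57 and Oasl1 by 0.55. The other 3 falls are of genes at 0 kb in both DM libraries: Ddx58 had 1.12 and 1.57 kb, Rtp4 0.676 and 0.708 kb and Ifit1 0.921 and 0.341 kb in Npm1c HSPC (limma adjusted p = 0.0057, 0.00831 and 0.0189). With median centring 6 members fell (Isg15, Usp18, Irgm1, Igtp, Ddx58, Rtp4) and 2 rose (Stat2, Trim25), as compared with 14.4% and 12.2% of all genes. Without Npm1c HSPC replicate 1 there were 7 falls, and without DM HSPC replicate 2 there were 6 falls and 2 rises, as compared with 2649 and 3115 calls over all genes and 4623 with all libraries.

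DM HSPC against Flt3-ITD HSPC gave 1 call, Rtp4, which had 0 kb in both DM libraries, against 0.537 and 0.995 kb in Flt3-ITD HSPC (limma adjusted p = 0.0383); 1.86% of all genes fell and 0.631% rose. Over the members the median difference was -0.27, and over all genes -0.09. With median centring Igtp fell as well, as compared with 3.3% of all genes that fell and 2.63% that rose. Without Flt3-ITD HSPC replicate 1 there were 3 calls (Irgm1, Rtp4, Ddx58), without Flt3-ITD HSPC replicate 2 there were 0, and without DM HSPC replicate 1 there were 7. Without DM HSPC replicate 2 the only call was a rise of Trim25.

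The interaction term compares the Npm1c difference on a Flt3-ITD background (DM minus Flt3-ITD) with the Npm1c difference on a WT background (Npm1c minus WT). It was negative and passed for 10 members, as compared with 17.5% of all genes negative and 0.462% positive. The members were Isg15, Usp18, Igtp, Gbp5, Gbp7, Ifih1, Ddx58, Dhx58, Parp9 and Rtp4. The windows of Gbp5 and Gbp7 overlap and both take in the Gbp7 promoter. The median was -0.73 over the members, 29 of them below 0, and -0.46 over all genes. For Isg15 the term was -1.59 (limma adjusted p = 0.0185): coverage was 2.90 and 2.90 kb in Npm1c HSPC, 1.53 and 2.47 kb in Flt3-ITD HSPC, 1.23 and 1.11 kb in DM HSPC and 1.29 and 1.04 kb in WT HSPC. Either single mutant lay above WT for Isg15, and DM lay at the WT level. For Igtp it was -1.94 (limma adjusted p = 0.0223), with 3.51 and 2.46 kb in Npm1c HSPC, 1.89 and 2.36 kb in Flt3-ITD HSPC, 1.04 and 0.391 kb in DM HSPC and 1.62 and 1.39 kb in WT HSPC. With median centring the term passed for Igtp and Rtp4 alone, as compared with 2.72% of all genes negative and 1.44% positive. Without WT HSPC replicate 1 it passed for 0 members and without WT HSPC replicate 2 for Rtp4 alone. Without Npm1c HSPC replicate 1 or DM HSPC replicate 2 it passed for 5 each, without Flt3-ITD HSPC replicate 2 for 2 and without DM HSPC replicate 1 for 18. The calls over all genes moved along, with 77 without WT HSPC replicate 1, 33 without WT HSPC replicate 2, 468 without Flt3-ITD HSPC replicate 2 and 6132 without DM HSPC replicate 1, as compared with 2453.

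**Figure D3:**
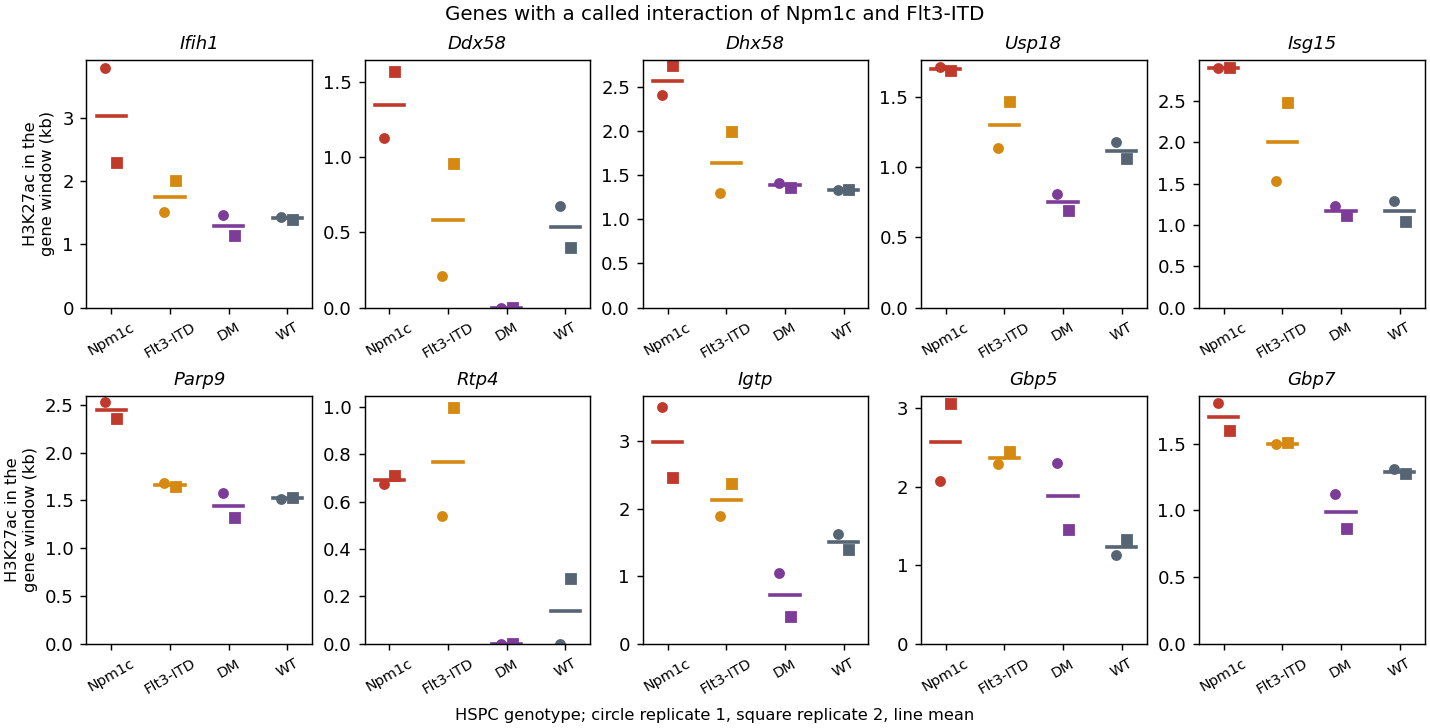
H3K27ac in kb, one point per library, for the 10 genes with a called interaction, with Npm1c, Flt3-ITD and DM HSPC left of WT HSPC. The Isg15 libraries of DM HSPC (1.23 and 1.11 kb) lie beside those of WT HSPC (1.29 and 1.04 kb), below those of Npm1c HSPC (2.90 and 2.90 kb).

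Neutrophils were set against WT HSPC as mature blood cells. H3K27ac fell over 8 tested members, Oasl1, Rsad2, Gbp7, Ifit2, Gbp3, Xaf1, Irgm1 and Isg20, as compared with 23.2% of all genes that fell and 13.2% that rose. Members had a median log2 difference of -0.11, and all genes -0.12. Oas2 (chr5:120730333-120749886), which makes oligoadenylates on sensing double-stranded RNA, had 0.875 and 1.21 kb in neutrophils, against 0 kb in both WT HSPC libraries, and was at 0 kb in the 6 mutant libraries too. It is also among the genes that passed and rose, but it met the filter on covered libraries through the neutrophil libraries alone, so that it could only differ, and its values are given as a description.

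Oasl1 (chr5:114923143-114937911), which in mice limits Irf7 translation, had 0.945 and 0.779 kb in neutrophils, against 2.5 and 2.4 kb in WT HSPC (log2 -1.12 ± 0.15 SE, limma adjusted p = 0.00168). Rsad2 (chr12:26442743-26456452) had 0.336 and 0.424 kb in neutrophils, against 0.98 and 1.21 kb in WT HSPC (log2 -0.85 ± 0.17 SE, limma adjusted p = 0.00788). Xaf1 (chr11:72301461-72313733), a pro-apoptotic factor, had 0.439 and 0.296 kb in neutrophils, against 1.08 and 1.16 kb in WT HSPC (log2 -0.90 ± 0.24 SE, limma adjusted p = 0.0214). All neutrophil values lay below all WT HSPC values in these 3 genes. Ifit2 (chr19:34550550-34576534) and Gbp3 (chr3:142560016-142573213) had no H3K27ac in neutrophils, against 0.736 and 0.57 kb for Ifit2 and 0.736 and 0.826 kb for Gbp3 in WT HSPC (limma adjusted p = 0.0142 and 0.0179). Gbp7 (chr3:142530336-142550151), whose window overlaps those of Gbp3 and Gbp5, had 0.561 and 0.749 kb in neutrophils, against 1.31 and 1.27 kb in WT HSPC (log2 -0.64 ± 0.13 SE, limma adjusted p = 0.00887). Irgm1 had 2.33 and 2.46 kb in neutrophils, against 4.18 and 4.36 kb in WT HSPC (log2 -0.72 ± 0.23 SE, limma adjusted p = 0.0454). Gbp3 and Gbp7 are named because they passed. Together with Irgm1 they were lower in both neutrophil libraries, as were Igtp and Gbp5, which did not pass. In neutrophils the Gbp5 and Gbp7 windows held the same 0.561 and 0.749 kb, the peak at the Gbp7 promoter. The Gbp3 promoter region also lies partly in the Gbp7 window, so Gbp3, Gbp5 and Gbp7 are not separate. Gbp2 went the other way, with 0.953 and 0.933 kb in neutrophils, against 0.761 and 0.725 kb in WT HSPC.

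Other members were close in length between the 2 cell types. Usp18 had 1.08 and 1.1 kb in neutrophils, against 1.18 and 1.06 kb in WT HSPC. Stat2 had 1.24 and 1.03 kb in neutrophils, against 1.12 and 1.1 kb in WT HSPC. Cxcl10 had 0.713 and 0.521 kb in neutrophils, against 0.61 and 0.598 kb in WT HSPC. These 3 overlapped and did not pass, and nor did Isg15, with 0.569 and 0.897 kb in neutrophils, against 1.29 and 1.04 kb in WT HSPC (limma adjusted p = 0.131). With median centring Trim25, Dtx3l and Ddx58 rose beside Oas2, and 8 members fell, as compared with 20.4% and 20.9% of all genes. Without WT HSPC replicate 1 the falls left were Rsad2 and Oasl1, without WT HSPC replicate 2 or neutrophil replicate 1 Oasl1 alone, and without neutrophil replicate 2 Rsad2, Gbp7 and Oasl1.

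Single regions show where within the windows the coverage lay. The 94 H3K27ac regions in member windows were read for presence in both libraries of one group and absence from both of the other, with no test. In Npm1c HSPC 6 were gained against WT HSPC (6.38%, against 7.9% of 48381 regions) and 0 lost (against 0.196%). In Flt3-ITD HSPC 5 were gained (5.32%, against 4.43%) and 1 lost (1.06%, against 2.42%). Gains thus made up a share near the background in both single mutants. In DM HSPC 4 were gained (4.26%, against 7.53%) and 5 lost (5.32%, against 6.55%). In neutrophils 8 were gained (8.51%, against 16.3%) and 10 lost (10.6%, against 9.22%). In DM HSPC and in neutrophils the share of gains was lower among member regions than over all regions, which was not tested. In DM against Npm1c HSPC 1 was gained (1.06%, against 3.65%) and 13 lost (13.8%, against 11.6%). In DM against Flt3-ITD HSPC 0 were gained (against 2.75%) and 6 lost (6.38%, against 3.05%). The members' share thus lay near the background share in some of these and apart from it in others, and no difference was tested.

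The regions named next were chosen after their values were seen. The Ddx58 promoter region, chr4:40238674-40239841, was covered by 648 and 1058 bp in Npm1c HSPC, 211 and 958 bp in Flt3-ITD HSPC, 0 bp in both DM libraries, 1158 and 1140 bp in neutrophils, and 389 and 398 bp in WT HSPC. It was thus absent from DM HSPC alone. A region beside Mx2, chr16:97534661-97535572, was covered in all 6 mutant libraries, by 229 to 833 bp, and by 203 and 0 bp in neutrophils, against 0 bp in both WT HSPC libraries. The Gbp3 promoter region, chr3:142559757-142562006, which holds the Gbp3 sequence printed above, was covered by 1262 and 1358 bp in Npm1c HSPC, 1562 and 1049 bp in Flt3-ITD HSPC, 2162 and 688 bp in DM HSPC, 0 bp in both neutrophil libraries, and 736 and 826 bp in WT HSPC. The Gbp5 promoter region, chr3:142496239-142497857, was covered in all 6 mutant libraries, by 648 to 1353 bp, and by 0 bp in both neutrophil libraries, against 0 and 239 bp in WT HSPC. The Gbp5 and Mx2 regions were longer in each mutant library than in either WT HSPC library. At Igtp the region over the promoter sequence printed above was of near constant length in all 10 libraries (391 to 512 bp). The next region inside the gene, chr11:58199968-58200736, was covered by 661 and 601 bp in Npm1c HSPC, 315 and 464 bp in Flt3-ITD HSPC, 0 bp in both DM and both neutrophil libraries, and 268 and 0 bp in WT HSPC. At Irgm1 the promoter region itself differed in length, with 4847 and 4812 bp in Npm1c HSPC, 3018 and 3850 bp in Flt3-ITD HSPC, 2743 and 2265 bp in DM HSPC, 2326 and 2458 bp in neutrophils, and 4176 and 4362 bp in WT HSPC. The Oas3 promoter region, chr5:120776958-120778061, which holds the Oas3 sequence above, was at 0 bp in both DM libraries, against 602 and 607 bp in WT HSPC. It had 1038 and 0 bp in Npm1c HSPC, 412 and 729 bp in Flt3-ITD HSPC, and 594 and 691 bp in neutrophils.

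**Figure D4:**
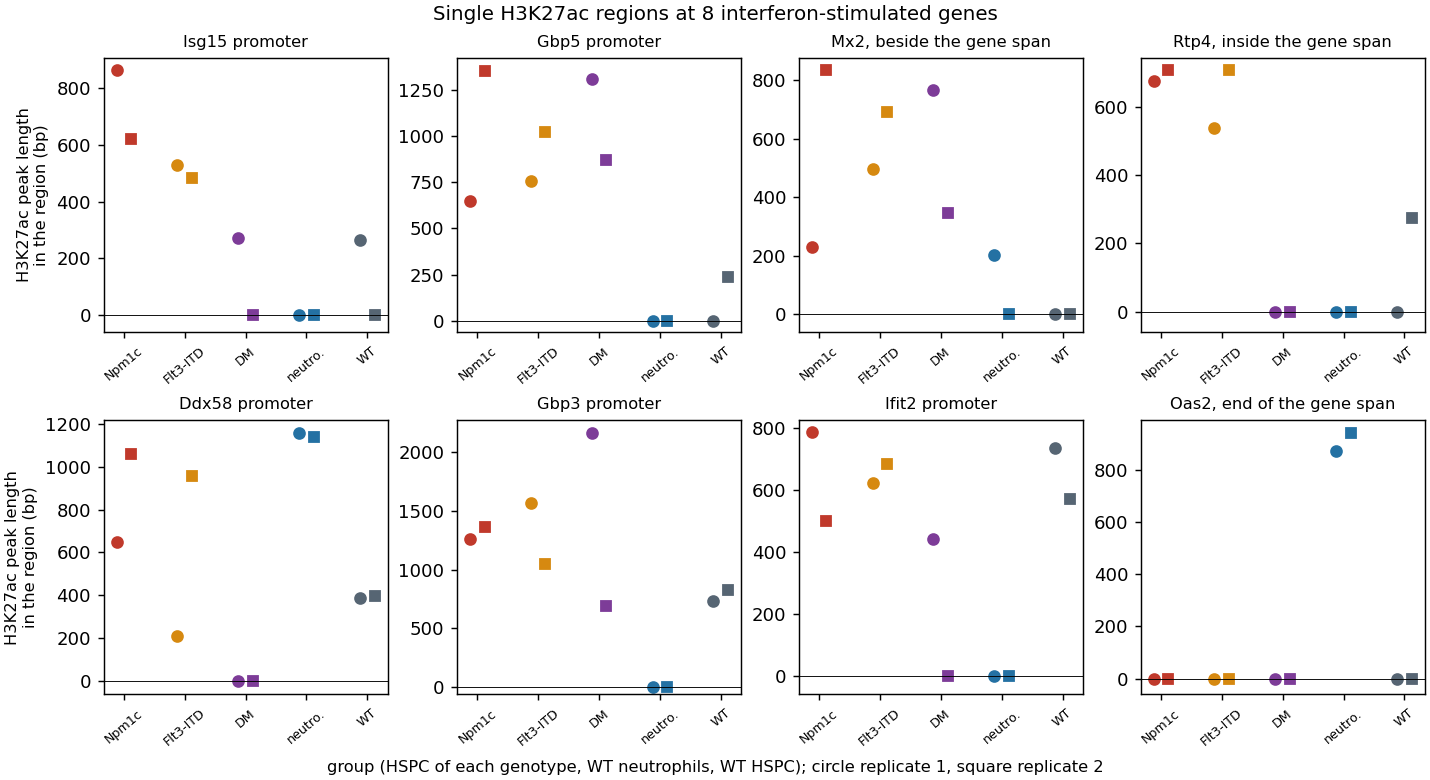
Covered length in bp of 8 single H3K27ac regions of interferon-stimulated genes in each library (circle, replicate 1; square, replicate 2), chosen after values were seen. The Ddx58 region is at 0 in DM HSPC only, the Gbp3 and Ifit2 promoter regions are at 0 in both neutrophil libraries, and the Oas2 region is above 0 only in neutrophils (875 and 944 bp).

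Genes that act upstream of the members, or beside them, were read from 3 lists. Of 12 interferon receptor and signalling genes, 6 rose in Npm1c against WT HSPC (as compared with 17.7% of all genes): the receptor chains Ifngr1 (log2 1.00), Ifnar2 (0.95) and Il10rb (1.21), the kinases Jak1 (1.25) and Jak2 (0.55), and the phosphatase Ptpn2 (0.98). None of the 12 passed in Flt3-ITD against WT HSPC (limma, 0 at an unadjusted p below 0.05), and in the other 2 lists none passed there either, with 5 genes each at an unadjusted p below 0.05. In DM against WT HSPC Ifngr2 rose (1.21; 6.94% of all genes rose) and Ifngr1 (-1.14) and Jak2 (-0.47) fell (6.03% of all genes). In DM against Npm1c HSPC Ifngr1, Irf9, Il10rb, Jak1 and Jak2 fell, and Ifngr2 rose, as compared with 30.9% of all genes that fell and 3.01% that rose. In neutrophils Ifnar2 rose and Irf9 fell, where 13.2% of all genes rose and 23.2% fell. The 2 chains of the interferon gamma receptor thus moved in opposite directions in DM HSPC. Of 12 nucleic acid sensing genes 9 could be tested. In Npm1c HSPC the kinase Tbk1 and the adaptor Mavs rose, and in DM HSPC the adaptors Ticam1 and Sting1 and the receptor Tlr9 rose. In neutrophils Ikbke, Tbk1 and Myd88 rose and Mavs and Irf3 fell. Of 20 other interferon-inducible genes 18 could be tested: 5 rose in Npm1c HSPC (27.8%, as compared with 17.7% of all genes), 3 fell in DM HSPC (16.7%, as compared with 6.03%) and 10 fell in DM against Npm1c HSPC (55.6%, as compared with 30.9%). In neutrophils 1 rose and 4 fell (22.2%, as compared with 23.2%). Among them Ifi47, an immunity-related GTPase, had 8.43 ± 1.14 kb in Npm1c HSPC, 3.88 ± 0.238 kb in Flt3-ITD HSPC, 1.43 ± 0.59 kb in DM HSPC, 0.88 ± 0.0233 kb in neutrophils and 4.58 ± 0.402 kb in WT HSPC (SD, n = 2 each). It rose in Npm1c HSPC and fell in DM HSPC and neutrophils. With median centring no gene of the 3 lists passed in Npm1c against WT HSPC (limma; 5, 3 and 6 genes at an unadjusted p below 0.05).

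H3K4me1 could be tested for all 35 members. Its peaks have a fixed width of 1000 bp, so that values move in steps of about 1 peak. In Npm1c HSPC 0 members passed (limma), as compared with 0.334% of all genes, and in Flt3-ITD HSPC 0 passed, as compared with 1.7%; 2 members had an unadjusted p below 0.05 in each. Without Npm1c HSPC replicate 2, 4 members fell (Eif2ak2, Gbp2, Ddx58, Cxcl10) and without WT HSPC replicate 2, Oas1a rose. In Flt3-ITD HSPC Oas1a fell without WT HSPC replicate 1. Gbp3 had 6 and 6.85 kb in Flt3-ITD HSPC, against 2 and 2.89 kb in WT HSPC, and rose with median centring only (0.357% of all genes rose and 0.408% fell).

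In DM HSPC H3K4me1 fell over 4 members, as compared with 16.2% of all genes that fell and 1.91% that rose. Ifit1 (chr19:34640889-34650009) had 2 and 3 kb in DM HSPC, against 6 and 7 kb in WT HSPC (log2 -1.24, limma adjusted p = 0.0151). Parp14 (chr16:35831892-35871518) had 2 and 2 kb in DM HSPC, against 4 and 4 kb in WT HSPC (log2 -0.85, limma adjusted p = 0.00856). Both genes also had shorter H3K27ac coverage in DM HSPC than in Npm1c HSPC. Isg20 had 4.24 and 3.34 kb in DM HSPC, against 7.36 and 6 kb in WT HSPC (log2 -0.74, limma adjusted p = 0.0198). Ifih1 had 7.68 and 8.62 kb in DM HSPC, against 11.8 and 12.6 kb in WT HSPC (log2 -0.56, limma adjusted p = 0.031). Isg20 therefore fell in both marks. Over the members the median difference was -0.14 on the log2 scale, and -0.21 over all genes. With median centring Rtp4 and Gbp3 rose and Ifit1 alone fell, as compared with 5.92% and 8.29% of all genes. Without WT HSPC replicate 1 Parp14 alone was called, and without WT HSPC replicate 2 Isg20 fell and Oas1a rose.

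In neutrophils H3K4me1 rose over 3 members and fell over 6, as compared with 4.67% and 18.6% of all genes. Isg20 had 2 and 2 kb in neutrophils, against 7.36 and 6 kb in WT HSPC (log2 -1.52, limma adjusted p = 0.00116). Ifih1 had 6.66 and 5.69 kb in neutrophils, against 11.8 and 12.6 kb in WT HSPC (log2 -0.93, limma adjusted p = 0.00408). Ifit2 had 7 and 7 kb in neutrophils, against 5 and 5 kb in WT HSPC (log2 0.45, limma adjusted p = 0.0209). Ifit2 thus gained H3K4me1 in the cells in which it carried no H3K27ac. Oasl2 and Ifit3 rose as well, Igtp, Mx2 and Bst2 fell, and Ifi44 had 0 kb in both neutrophil libraries, against 1 kb in both WT HSPC libraries. The Ifit3 rise rests on a single region, chr19:34576884-34577902, which also lies in the Ifit2 window, so these rises are not separate. The median was 0.02 over the members and -0.16 over all genes. With median centring 2 rose and 4 fell, as compared with 7.99% and 17.1% of all genes. Without neutrophil replicate 2, 5 of these 9 were called, Igtp, Ifit3, Ifih1, Ifi44 and Isg20; without WT HSPC replicate 1 or neutrophil replicate 1 there were 6 calls each.

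H3K4me3 could be tested for 34 members. In this mark 1 rose in Npm1c HSPC against WT HSPC, as compared with 0.973% of all genes that rose and 0.403% that fell. In Flt3-ITD HSPC 1 fell, as compared with 0.452% that fell and 2.27% that rose. In DM HSPC 1 rose and 1 fell, as compared with 4.47% and 3.7%, and in neutrophils 2 rose and 2 fell, as compared with 6.72% and 9.88%. The members' median difference was 0 in all 4 comparisons. Isg15 had 3 kb and Ifit1, Stat2 and Irgm1 had 1 kb in each of the 10 libraries. The calls rest on single peaks in windows whose replicates had little or no spread, so no p is given. Mx1 had 2 and 2 kb in Npm1c HSPC, against 1 and 1 kb in WT HSPC. Parp14 had 1 and 1 kb in Flt3-ITD HSPC, in DM HSPC and in neutrophils, against 2 and 2 kb in WT HSPC. Igtp had 2 and 2 kb in DM HSPC, against 1 and 1 kb in WT HSPC. It had 2 and 2 kb in Flt3-ITD HSPC and 3 and 2 kb in Npm1c HSPC, where it did not pass. The region over the Igtp promoter, chr11:58198746-58199870, was covered in both WT HSPC libraries and in no DM or Flt3-ITD library. The next region, chr11:58199899-58200922, was covered in both DM and both Flt3-ITD libraries, in 1 Npm1c library and in neither of WT HSPC. A region past the end of Igtp, chr11:58210734-58211834, had 1000 bp in every mutant library, against 0 bp in all WT HSPC and neutrophil libraries. Mx2 had 1 and 1 kb in Npm1c HSPC and in neutrophils, against 2 and 2 kb in WT HSPC, and did not pass. These comparisons share the WT HSPC libraries. In neutrophils Dtx3l had 2 and 2 kb, against 1 and 1 kb in WT HSPC, Ifi44 had 0 kb in both libraries, against 1 kb in both of WT HSPC, and Cxcl10 had 1.76 and 1.78 kb, against 1.73 and 1.71 kb in WT HSPC. With median centring 4 members rose and 1 fell in neutrophils, as compared with 9.4% and 6.06% of all genes. In each mutant 0 passed (limma, with 0.124% of all genes in Npm1c, 0.397% in Flt3-ITD and 4.88% in DM HSPC). Centring is coarse for this mark, whose peaks also have a fixed width of 1000 bp. With it the Cxcl10 difference in neutrophils was 0.40 on the log2 scale, although the lengths were nearly equal. Without WT HSPC replicate 1 there were 4 calls in each mutant and 6 in neutrophils. Without either Npm1c library there were 2 in Npm1c HSPC, and without Flt3-ITD HSPC replicate 1 there were 2 in Flt3-ITD HSPC. In DM HSPC there was 1 without WT HSPC replicate 2 and there were 3 without DM HSPC replicate 1.

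**Figure D5:**
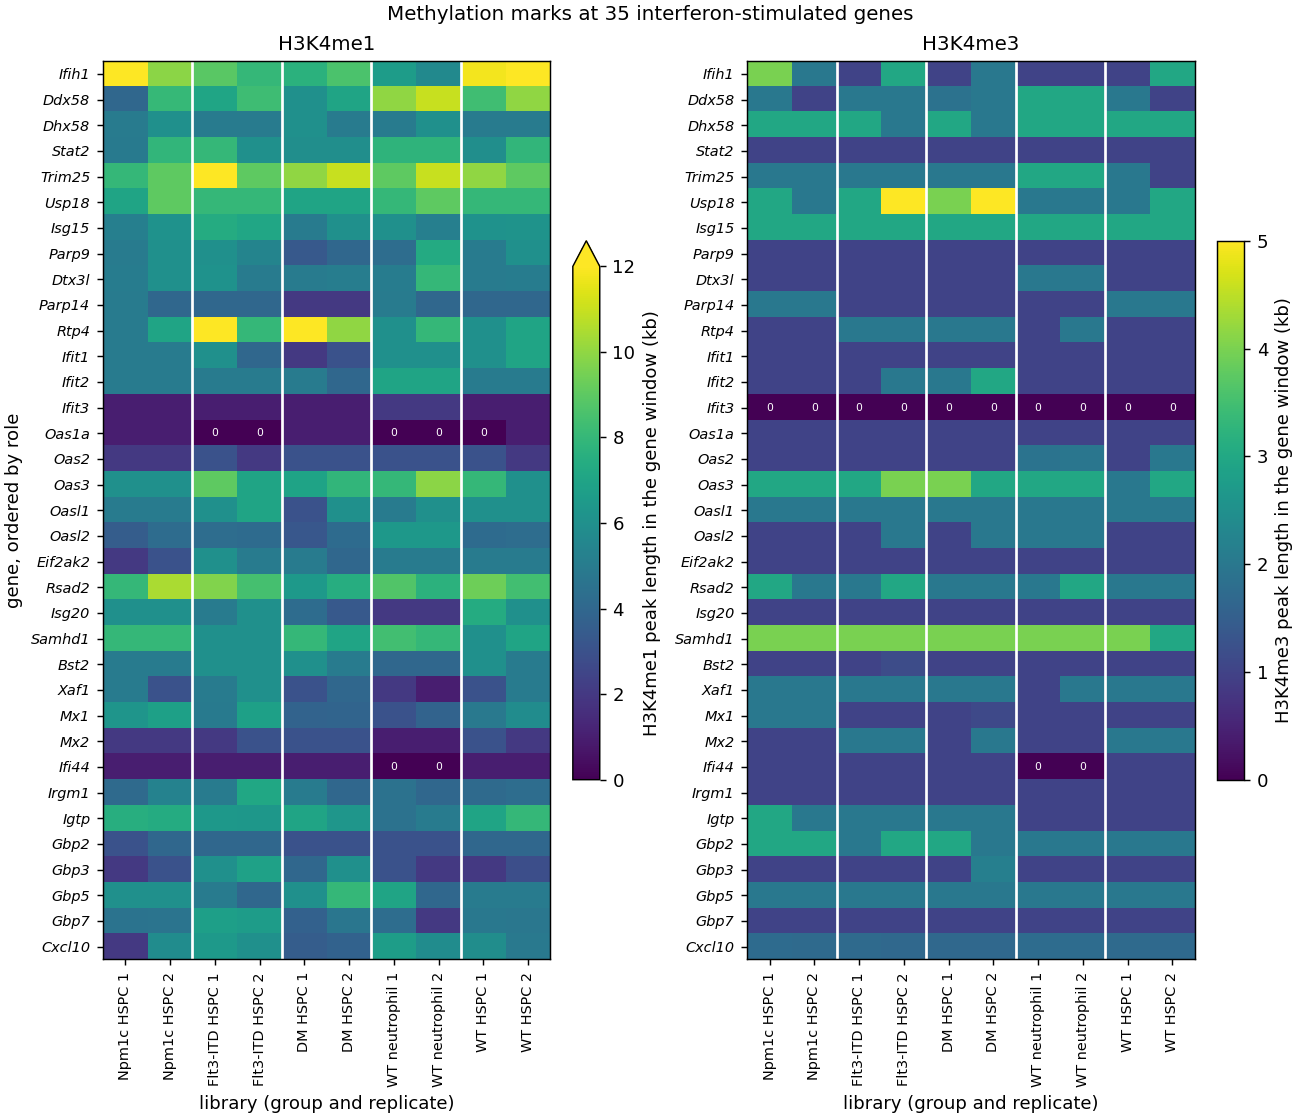
H3K4me1 (left) and H3K4me3 (right) in kb in the windows of the 35 interferon-stimulated genes, with genes down the page and the 10 libraries across. H3K4me1 at Isg20 is at 4.24 and 3.34 kb in DM HSPC and at 2 and 2 kb in neutrophils, against 7.36 and 6 kb in WT HSPC, while H3K4me3 at Isg15 is 3 kb in all libraries.

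Summed over all member windows, H3K27ac covered 57.1 and 55.1 kb in Npm1c HSPC, 37.9 and 48.0 kb in Flt3-ITD HSPC, 40.7 and 24.4 kb in DM HSPC, 30.0 and 30.3 kb in neutrophils, and 35.9 and 35.9 kb in WT HSPC. Relative to the Mb of genome that each list covered, this was 2436 and 2304 bp per Mb in Npm1c HSPC, 2287 and 2614 bp in Flt3-ITD HSPC, 2002 and 1812 bp in DM HSPC, 1872 and 1821 bp in neutrophils, and 2360 and 2348 bp in WT HSPC. Relative to the covered genome, Npm1c and Flt3-ITD libraries lay on both sides of WT HSPC, and the DM and neutrophil libraries lay below it. Windows of 11 members overlap those of another member, so windows were merged before summing and shared peaks were not counted again. No test was made of these sums.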

How the data were processed

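The members and lists were chosen with earlier results of these data known. The authors deposited peak coordinates (chromosome, start, end; unit other), with no score or read count. Per the submitters' processing notes, Bowtie2 2.1.0, Picard, HOMER and MACS2 and the build mm10 were used; the remaining versions and the calling thresholds are not stated. The files hold 1 peak list per library, 30 in all; the 5 input samples were not used here. Only peaks on chromosomes 1 to 19, X and Y were counted.

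Gene spans came from RefSeq (GRCm38.p6), protein-coding genes plus the transcribed pseudogenes among the members; the table gives no strand or exons. List genes matched by symbol, 2 of them by an older one. Peaks were merged per library and covered bp summed per window with purpose-written interval code (Python 3.11.15, NumPy 2.4.6, pandas 2.3.3, matplotlib 3.10.9). Genes covered in at least 2 of 10 libraries were fitted as log2(bp + 500) on 5 groups by lmFit and a trended eBayes of limma 3.58.1 (R 4.3.3). Adjustment by Benjamini-Hochberg ran over all genes, separately by mark and comparison, and calls were made below 0.05. The code was tested on simulated data. Depth is unknown, so the precision of a single value cannot be given. Named genes were members that passed against WT HSPC, at most 8 per comparison for H3K27ac and 4 for the other marks, plus Stat2, Isg15, Ifit1, Usp18, Irgm1, Cxcl10, Rsad2 and Oas2; others named in the text were chosen after their values were seen. Alternatives were median centring, another pseudocount, filter and window, equal list lengths, a replicate block, robust fitting and leaving out each library. Not every gene of the pathway and marker lists is reported here.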

Additional observations from a re-analysis of the deposited data

Results flagged for a closer look

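The Npm1c difference in H3K27ac differed between the WT and the Flt3-ITD background, by limma's test of the difference itself (interaction, adjusted over 13638 genes), in 10 members, each with a negative term. On the log2 scale it was -1.59 for Isg15, -0.97 for Usp18, -1.94 for Igtp, -1.10 for Gbp5, -0.73 for Gbp7, -1.18 for Ifih1, -1.86 for Ddx58, -0.91 for Dhx58, -0.70 for Parp9 and -2.25 for Rtp4. Ddx58 and Rtp4 are at 0 kb in both DM libraries, so the size of their terms depends on the 500 bp added before the logarithm. Gbp5 and Gbp7 have overlapping windows that both take in the Gbp7 promoter, so their terms are not separate. The Igtp window reaches the neighbouring genes Gm12250 and Irgm2. Negative calls made up 17.5% of all genes.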

How the results depend on the processing

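Of the counts of members called for H3K27ac, that in Npm1c against WT HSPC (7) was 0 with median centring and 1 with equal list lengths, and 0 to 3 without one library; over all genes 2413 calls became 109 and 1093. DM against WT HSPC (1) gave 10 with median centring and 0 to 5 without one library; all genes gave 1770 and, centred, 3076. Neutrophils (9, Oas2 included) gave 2 to 4 without one library, Flt3-ITD against WT HSPC (0) 0 in each case. DM against Npm1c HSPC (14) gave 8 centred and 7 to 19 without one library; DM against Flt3-ITD HSPC (1) gave 2 centred, 0 with 2000 bp added, 0 with robust fitting and 0 to 7 without one library. The interaction (10) gave 2 centred, 5 with the gene span without extension and 0 to 18 without one library. For H3K4me1, Npm1c (0) gave 1 with the span alone and 0 to 4 without one library, Flt3-ITD (0) gave 1 centred, 1 with the span alone and 0 to 1, DM (4) 1 to 3 and neutrophils (9) 5 to 8. For H3K4me3, Npm1c (1) gave 0 centred and 1 to 4 without one library, Flt3-ITD (1) 0 centred, 2 with the span alone and 1 to 4, DM (2) 0 centred, 1 with 2000 bp added, 4 with the span alone and 1 to 4, and neutrophils (4) 8 with the span alone and 4 to 6. For H3K27ac in Npm1c against WT HSPC, the span alone gave 5 members, without Isg15, Usp18, Gbp5 and Parp9. The cause of these shifts was not tested. Over the values of the named genes in all settings, a call was lost in 107 cases and gained in 11, and no called value changed sign. Values that did not pass could change sign, as did Isg15 in DM against WT HSPC for H3K27ac, at 0.11 without WT HSPC replicate 1 and -0.10 without replicate 2. A minimum difference of 1000 bp for H3K4me1 and H3K4me3 was an alternative chosen after seeing the data. Unknown depth limits every value, and a missing peak does not show that a mark is absent.

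The groups share replicate numbers. Deviations of same-numbered libraries correlated between -0.126 and 0.278 for H3K27ac, -0.119 and 0.0705 for H3K4me1, and -0.231 and 0.103 for H3K4me3. A shift common to all genes does not show in such a correlation. Whether same-numbered libraries share more than the number cannot be told from it, and the labels say only that replicates are biological. With the replicate block, the count was 4 in Npm1c against WT HSPC for H3K27ac (1395 over all genes), 0 in DM against WT HSPC for H3K27ac, 1 in DM against WT HSPC for H3K4me3, 7 in neutrophils and 7 for the interaction.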
